A study of Mus musculus with 3 samples.

Results

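The antioxidant, glutathione and thioredoxin genes are 42 genes whose products remove superoxide and peroxides, make and recycle glutathione and thioredoxin, or regulate these enzymes. They were taken by gene symbol from a table of 16587 genes, and all 42 were found there. The table covers 3 poly(A) RNA libraries, numbered 1 to 3, from hearts of wild-type (WT) male mice killed at 12 weeks of age. All 3 libraries belong to 1 group with no treatment, so the values describe a baseline. The labels name neither the strain nor whether each library came from its own animal. The defining markers of heart muscle were present, with all 8 cardiomyocyte markers detected and a summed level of 95980, 93200 and 93280 CPM (counts per 1000000) in libraries 1, 2 and 3.

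Heart muscle respires almost without pause, and electrons that leak from its mitochondria reduce oxygen to superoxide. Superoxide dismutases turn superoxide into hydrogen peroxide, which catalase, the glutathione peroxidases and the peroxiredoxins reduce to water. The last of these enzymes draw their electrons from glutathione or thioredoxin, which are recharged by reductases that use NADPH. The transcription factor NRF2, held down by its partner KEAP1, is known to raise many of these genes when electrophiles or oxidants accumulate.

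All 42 genes were detected, that is, they reached 1 CPM in every library, which 71.3% of the 16587 genes in the table did. Together they took 0.945%, 0.950% and 0.877% of the counts in libraries 1, 2 and 3, a mean of 0.924 ± 0.0411% (SD, n = 3). Levels of different genes are compared below as TPM, counts divided by annotated exon length and scaled to a total of 1000000 per library. A TPM could be given for 41 of the 42, all except Nnt, and all errors are SD over the 3 libraries unless stated. The median of the 41 was 117.7 TPM, against 7.31 TPM over all genes with a length. All 41 lay above that general median, 24 lay in the top 10% and 3 in the top 1%. The 5 highest, Gpx4, Txnip, Mgst3, Prdx3 and Prdx5, made up 52.8% of the summed TPM of the 41. In whole tissue, fewer cells of a type and less RNA per cell cannot be told apart.

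**Figure D1:**
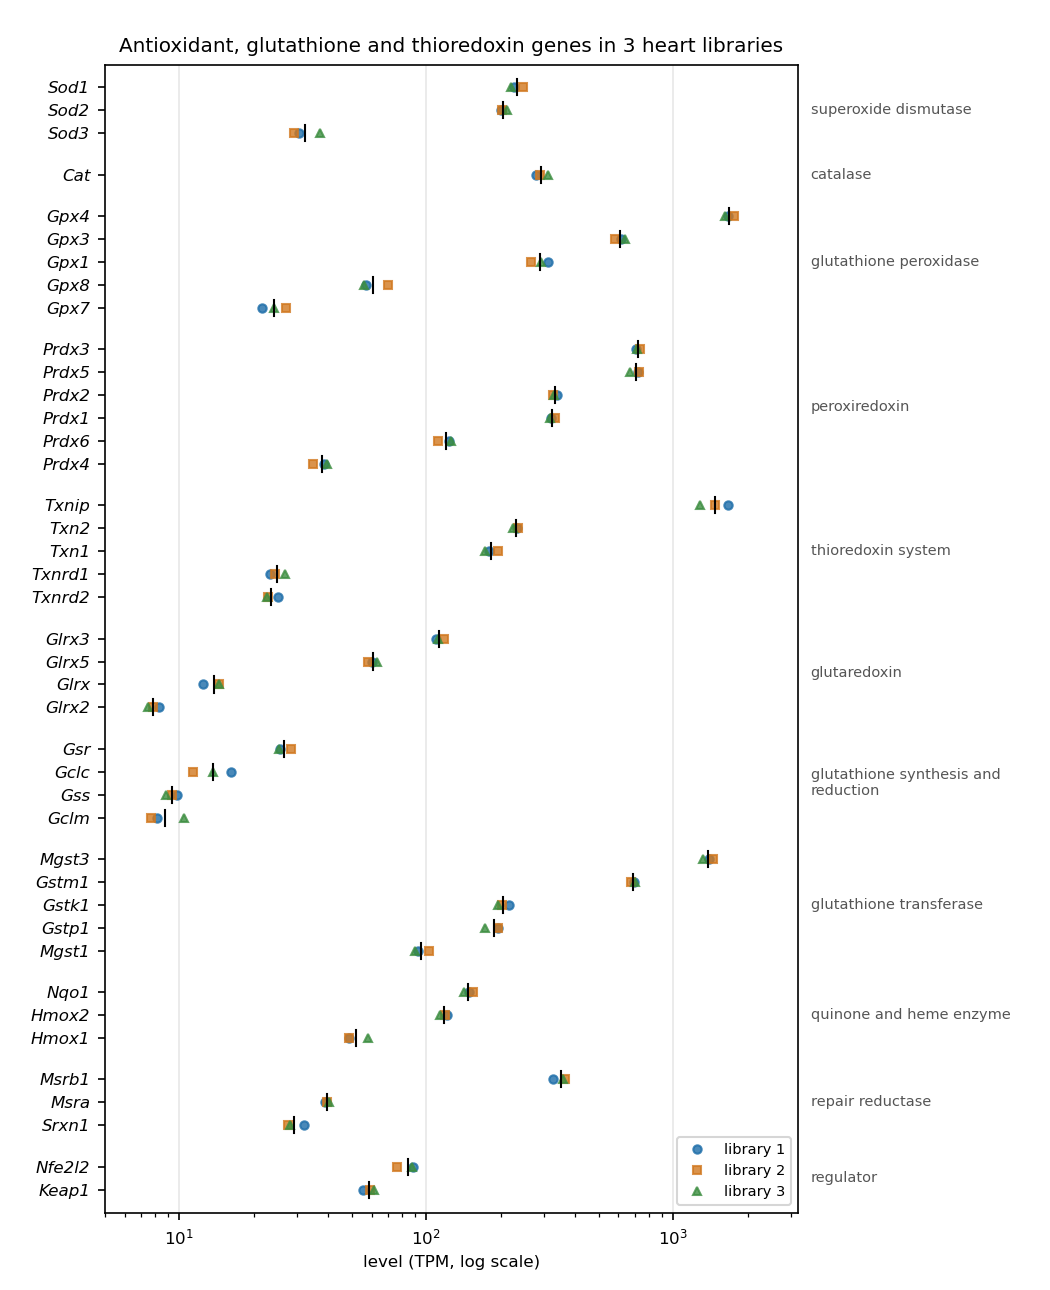
Level of 41 antioxidant, glutathione and thioredoxin genes (TPM, log scale, horizontal axis) by role. Circles, squares and triangles are libraries 1, 2 and 3, and black bars are means of the 3 libraries. Gpx4 (1683 TPM), Txnip (1472 TPM) and Mgst3 (1383 TPM) stand highest, and Glrx2 (7.85 TPM), Gclm (8.75 TPM) and Gss (9.34 TPM) lowest.

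Among superoxide dismutases, the cytosolic copper-zinc enzyme Sod1 stood at 227, 248 and 221 TPM in libraries 1, 2 and 3, and the mitochondrial manganese enzyme Sod2 at 200, 202 and 211 TPM. Sod1 was above Sod2 in each library, by a mean log2 ratio of Sod2 over Sod1 of -0.18 ± 0.11, but this order depended on the length used. The ratio was 0.59 with the length of the longest transcript and 1.15 with no length correction, so the 2 genes could not be ranked. Sod3, the extracellular form, stood at 30.4, 29.0 and 37.2 TPM, and Sod1 exceeded it 7.24-fold (log2 ratio 2.86 ± 0.26). Cat, the peroxisomal catalase, stood at 278, 288 and 312 TPM, and its range lay above that of Sod1. The order held with the longest transcript, at means of 216.1 TPM for Cat and 171.5 TPM for Sod1. It reversed with no length correction, where Sod1 (302.8, 335.4 and 284.9 CPM) was above Cat (243.5, 256.8 and 264.1 CPM) in each library.

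Glutathione peroxidases summed to 2669 ± 43 TPM, the largest mean sum among the roles. With no length correction their sum (1509 ± 61.5 CPM) was below those of the thioredoxin system (2019 ± 236 CPM) and the peroxiredoxins (1742 ± 66.7 CPM). Gpx4 reduces lipid hydroperoxides inside membranes and is known to restrain ferroptosis. It stood at 1661, 1770 and 1619 TPM, at the 99.5 percentile of all genes. Gpx3, the secreted form found in plasma, stood at 612, 583 and 638 TPM, and Gpx1, the general cytosolic and mitochondrial form, at 310, 265 and 292 TPM. The 3 ranges did not overlap. The log2 ratio of Gpx1 over Gpx4 was -2.54 ± 0.17, which puts Gpx4 5.83-fold higher, and Gpx3 exceeded Gpx1 2.12-fold. Gpx8 (57.2, 69.7 and 55.7 TPM) and Gpx7 (21.7, 27.0 and 24.1 TPM), 2 peroxidases of the endoplasmic reticulum, lay well below, with Gpx8 2.50-fold above Gpx7.

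The leading glutathione peroxidases are selenoproteins, in which an in-frame TGA codes for selenocysteine, the residue that reacts with the peroxide. GENCODE M21 annotates such a codon in 6 of the 42 genes, Gpx1, Gpx3, Gpx4, Txnrd1, Txnrd2 and Msrb1. It is shown for the peroxidases in the coding strand of the reference transcript, with TGA in capitals, beside the codon that aligns with it in Gpx7 and Gpx8, also in capitals.
Gpx1: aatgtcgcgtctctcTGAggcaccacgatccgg
Gpx3: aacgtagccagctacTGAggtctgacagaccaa
Gpx4: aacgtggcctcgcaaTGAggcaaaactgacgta
Gpx8: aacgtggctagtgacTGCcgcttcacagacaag
Gpx7: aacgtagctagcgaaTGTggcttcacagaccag
On build GRCm38 the capital codons lie on the plus strand at chr9:108339451-108339453 (Gpx1), chr11:54907256-54907258 (Gpx3) and chr10:80054737-80054739 (Gpx4), and on the minus strand at chr13:113045661-113045663 (Gpx8) and chr4:108403430-108403432 (Gpx7). The 2 forms with a cysteine codon, TGC or TGT, in this place were the 2 lowest of the 5 peroxidases in each library. This is a description of 5 genes and no relation between codon and level was tested.

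Peroxiredoxins reduce peroxides through a reactive cysteine and mostly draw on thioredoxin. The 6 genes summed to 2236 ± 39.1 TPM. Prdx3, the mitochondrial form, stood at 710, 736 and 712 TPM, and Prdx5, found in mitochondria, peroxisomes and cytosol, at 721, 726 and 667 TPM. Their ranges overlapped and neither was higher in all 3 libraries (log2 ratio of Prdx3 over Prdx5 0.03 ± 0.06). The cytosolic forms Prdx2 (340, 325 and 329 TPM) and Prdx1 (319, 331 and 318 TPM) also overlapped, at 0.04 ± 0.06. Prdx3 exceeded Prdx2 2.17-fold (1.12 ± 0.06), but this ratio shrank to 0.20 with the longest transcript and 0.07 with no length correction. Prdx6, which accepts electrons from glutathione, stood at 123, 112 and 126 TPM, and Prdx4, the form of the endoplasmic reticulum, at 38.7, 34.8 and 39.5 TPM.

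Prdx2 is abundant in red cells, and red cell RNA differed between the libraries. The 10 erythroid markers, of which 7 were detected, summed to 2238, 1055 and 1710 CPM in libraries 1, 2 and 3, and Ahsp was at 0 in library 2. Prdx2 had 347, 339 and 325 CPM, with library 1 highest and library 3 lowest. Red cells also carry Cat, which had 244, 257 and 264 CPM, a span of 1.08-fold. They carry Gpx1 too, which had 150, 130 and 136 CPM, a span of 1.15-fold in the same library order as the sum of the markers. The part of red cell RNA in these 3 genes was not tested.

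In the thioredoxin system, the small cytosolic carrier Txn1 stood at 179, 195 and 174 TPM and its mitochondrial counterpart Txn2 at 233, 236 and 225 TPM. Txn2 was 1.27-fold above Txn1 (log2 ratio 0.34 ± 0.06), and the ratio was larger under other lengths, 1.38 with the longest transcript and 2.35 with no length correction. The reductases that recharge them were lower. Txnrd1, cytosolic, stood at 23.3, 24.3 and 26.8 TPM and Txnrd2, mitochondrial, at 25.1, 22.9 and 22.7 TPM, and neither was above the other in every library. Both end in a selenocysteine codon (TGA, in capitals) that is followed by a single glycine codon and the stop codon.
Txnrd1: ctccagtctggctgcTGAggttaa
Txnrd2: actgtgactggttgcTGAggctaa
On GRCm38 these codons are at chr10:82896037-82896039 and chr16:18477772-18477774, both on the plus strand.

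Txnip, an arrestin-family protein that binds thioredoxin and is known as a glucose-responsive gene, had by far the most counts of the 42. It had 44026, 41436 and 32411 counts in libraries 1, 2 and 3, or 1739, 1570 and 1301 CPM, which was 16.6% of all counts of the 42 genes. Library 3 was lowest and library 1 was 1.34-fold above it. Txnip was the only one of the 42 with an unadjusted p under 0.05 for variation between libraries, at 0.0258 by edgeR. It did not pass after adjustment over all 12521 genes tested (edgeR adjusted p = 0.722, and 0.351 to 1.0 over the alternatives). The 14 immediate early genes, of which 12 were detected and 0 were at 0 in any library, summed to 709, 656 and 436 CPM. Of the 14, 4 were highest in library 1 and lowest in library 3, as Txnip was, and 5 were highest in library 2. The order of the sum in libraries 1 and 2 rested on Nr4a1 (112, 43.9 and 40.9 CPM), an orphan nuclear receptor named after its values were seen, without which the other 13 summed to 597, 612 and 395 CPM. Their part in the spread of Txnip was not tested.

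Glutaredoxins reduce disulfides with glutathione or carry iron-sulfur clusters. Glrx3, a cytosolic protein of iron handling, stood at 110, 118 and 111 TPM, and Glrx5, which serves iron-sulfur cluster assembly in mitochondria, at 60.4, 58.0 and 63.4 TPM. The other two were lower. Glrx, the cytosolic disulfide reductase, had 12.5, 14.5 and 14.4 TPM, and mitochondrial Glrx2 had 8.27, 7.81 and 7.46 TPM. Its mean was the lowest of the 41, but Gclm was lower in libraries 1 and 2, and with the longest transcript Glrx2 ranked 38 of 41. Glrx5 exceeded Glrx2 7.72-fold (log2 ratio 2.95 ± 0.12), and by 2.11 on the log2 scale with the longest transcript and 1.70 with no length correction. The active sites set these genes apart, and they are shown in capitals, 4 codons each, beside those of the thioredoxins. Thioredoxins, Glrx and Glrx2 have cysteine codons (TGT or TGC) at the first and last place, while Glrx3 and Glrx5 end in the serine codon AGC.
Txn1: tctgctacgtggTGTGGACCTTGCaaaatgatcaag
Txn2: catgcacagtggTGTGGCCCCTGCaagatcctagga
Glrx: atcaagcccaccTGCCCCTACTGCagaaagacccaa
Glrx2: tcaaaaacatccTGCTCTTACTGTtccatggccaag
Glrx3: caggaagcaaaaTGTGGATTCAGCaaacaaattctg
Glrx5: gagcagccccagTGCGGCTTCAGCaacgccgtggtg
The capital stretches lie on GRCm38 at chr4:57951821-57951832 (Txn1, minus strand), chr15:77924651-77924662 (Txn2, minus), chr13:75840035-75840046 (Glrx, plus), chr1:143745092-143745103 (Glrx2, plus), chr7:137462970-137462981 (Glrx3, plus, the later of its 2 such stretches) and chr12:105032886-105032897 (Glrx5, plus). The 2 genes with the serine codon stood above the 2 glutaredoxins without it in every library, a description of 4 genes with no test.

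Genes that make and recycle glutathione itself were low beside the other members, summing to 58.3 ± 1.46 TPM, the smallest sum among the roles. Among all genes with a length they lay between the 53.3 percentile (Gclm) and the 74.6 percentile (Gsr). Gsr, which reduces oxidised glutathione with NADPH, stood at 25.6, 28.4 and 25.4 TPM. Gclc, the catalytic subunit of the rate-limiting ligase, stood at 16.1, 11.3 and 13.7 TPM, and its modifier subunit Gclm at 8.13, 7.71 and 10.4 TPM. Gclc was above Gclm in each library, by a log2 ratio of 0.65 ± 0.31, but with no length correction the mean ratio turned to -0.09. Gss, which adds the final glycine, stood at 9.82, 9.34 and 8.87 TPM. Gclc had the largest spread of the 42 (SD of log2 CPM 0.249), with 516, 384 and 418 counts, and did not pass for variation (edgeR adjusted p = 0.999, unadjusted p = 0.155).

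Glutathione transferases join glutathione to electrophiles. Mgst3, a membrane-bound form that also reduces lipid peroxides, led them at 1392, 1444 and 1314 TPM, followed by the cytosolic mu-class Gstm1 at 690, 675 and 703 TPM. Gstk1, the form of mitochondria and peroxisomes, stood at 217, 203 and 194 TPM, the pi-class Gstp1 at 196, 196 and 174 TPM, and membrane-bound Mgst1 at 92.6, 103 and 89.6 TPM. Mgst3 exceeded Mgst1 14.6-fold (log2 ratio 3.87 ± 0.05), the widest gap among the 17 pairs, and by 3.08 with the longest transcript and 2.99 with no length correction. Gstm1 exceeded Gstp1 3.67-fold (1.87 ± 0.13), and by 1.15 with the longest transcript. Gstm1 held within 1.01-fold across libraries in CPM. Counts of Gstp1 are uncertain because Gstp2 and Gstp3 are close copies. Gstp1 had 2570, 2729 and 2172 counts, Gstp2 26, 40 and 138, Gstp3 (named after its values were seen) 4, 6 and 0, and the 3 genes summed to 2600, 2775 and 2310.

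Of the remaining enzymes, Msrb1, a selenoprotein that repairs the R form of methionine sulfoxide, stood highest at 324, 366 and 359 TPM. It was 8.82-fold above Msra, which repairs the S form, at 38.7, 39.6 and 40.5 TPM (log2 ratio of Msra over Msrb1 -3.14 ± 0.07), and the size of this gap depended on length, at -2.45 with the longest transcript and -1.37 without correction. Srxn1, which restores overoxidised peroxiredoxins, stood at 32.0, 27.5 and 27.9 TPM. The quinone reductase Nqo1, a classic NRF2 target, stood at 149, 155 and 142 TPM. Hmox2, the constitutive heme oxygenase, stood at 121, 119 and 113 TPM and exceeded the inducible form Hmox1 (48.7, 48.8 and 58.1 TPM) 2.28-fold, at a log2 ratio of 1.19 ± 0.19. Nfe2l2, which codes for NRF2, stood at 88.7, 75.8 and 87.8 TPM, above its repressor Keap1 at 55.3, 58.9 and 61.2 TPM, with a log2 ratio of Keap1 over Nfe2l2 of -0.52 ± 0.16.

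NRF2 binds the antioxidant response element, and its core was searched as TGAC, any 3 bases and GCA on both strands of the RefSeq promoter windows (build GRCm38.p6, from 250 bases before to 50 after each start). Of the 42 genes 35 matched a window by symbol, and 1 of the 35 (2.86%) held the motif, against 3.45% of all genes with a window. It was Txnrd1, shown for its motif in capitals, which reads on the opposite strand and begins 93 bases before a start site.
Txnrd1 promoter: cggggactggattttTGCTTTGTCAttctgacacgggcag
This stretch is chr10:82859098-82859137 on the plus strand. The absence of these letters elsewhere says nothing of binding outside the window.

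Nnt, the mitochondrial transhydrogenase that makes NADPH from NADH, had 14353, 14685 and 14295 counts, or 567, 556 and 574 CPM. No TPM is given, since the annotation holds 2 gene models of this symbol. It had the smallest spread of the 42 in the main fit, with an SD of log2 CPM of 0.0174. Scaled by library totals only, Gstm1 had a smaller SD (0.0107) than Nnt (0.0225). The C57BL/6J strain is known to carry a deletion inside Nnt, and counts summed over a gene do not show whether such a deletion was present here.

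**Figure D2:**
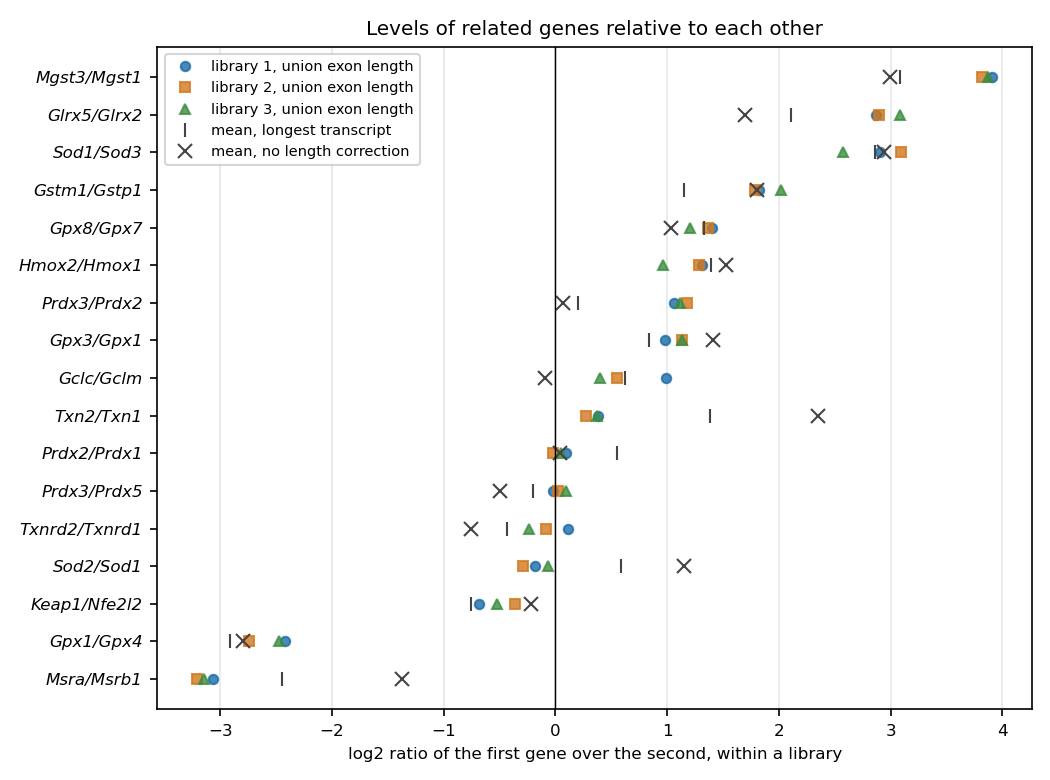
Log2 ratio of the first gene over the second in each library for 17 pairs of related genes (horizontal axis, per kilobase of union exon length; circles, squares and triangles are libraries 1, 2 and 3). Ticks and crosses give the 3-library mean with the length of the longest transcript and with no length correction. The libraries lie close together in most pairs, while the length used moves Sod2/Sod1 from -0.18 to 0.59 and 1.15.

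Of these 17 ratios, 14 had the same sign in all 3 libraries. The other 3 were Prdx2/Prdx1, Prdx3/Prdx5 and Txnrd2/Txnrd1 (-0.07 ± 0.17). In the whole order of 41 levels, 25 of the 40 pairs of neighbours had overlapping ranges, 15 did not, and in 20 the higher gene was above the next in every library. With the length of the longest transcript, 11 of the 12 highest genes stayed among the 12 highest, with Txn2 in place of Cat, and 3 genes moved by over 1.5 times, Prdx4 (57.2 TPM), Txn2 (351 TPM) and Glrx2 (13.0 TPM).

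By edgeR, 0 of the 42 genes varied between libraries more than genes of their level after adjustment over all genes, where 0.591% of the 12521 genes tested did. At an unadjusted p under 0.05 the count was 1 of 42, Txnip, where 5.39% of all genes passed. The dispersion trend of DESeq2 likewise called 0 of 42 after adjustment (0.543% of all genes) and 1 at an unadjusted p under 0.05 (4.07% of all genes). The SD of log2 CPM ran between 0.0174 (Nnt) and 0.249 (Gclc), with a median of 0.110 against 0.142 over all genes tested. Abundant genes vary less, and at matched level the medians were equal to the digits given. The 20 members between 31.3 and 327 CPM had a median SD of 0.100, as did the 4515 other genes in that range. In 35 of the 42, the highest library was less than 1.2-fold above the lowest in CPM, and the widest gap was 1.40-fold, for Gclc.

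**Figure D3:**
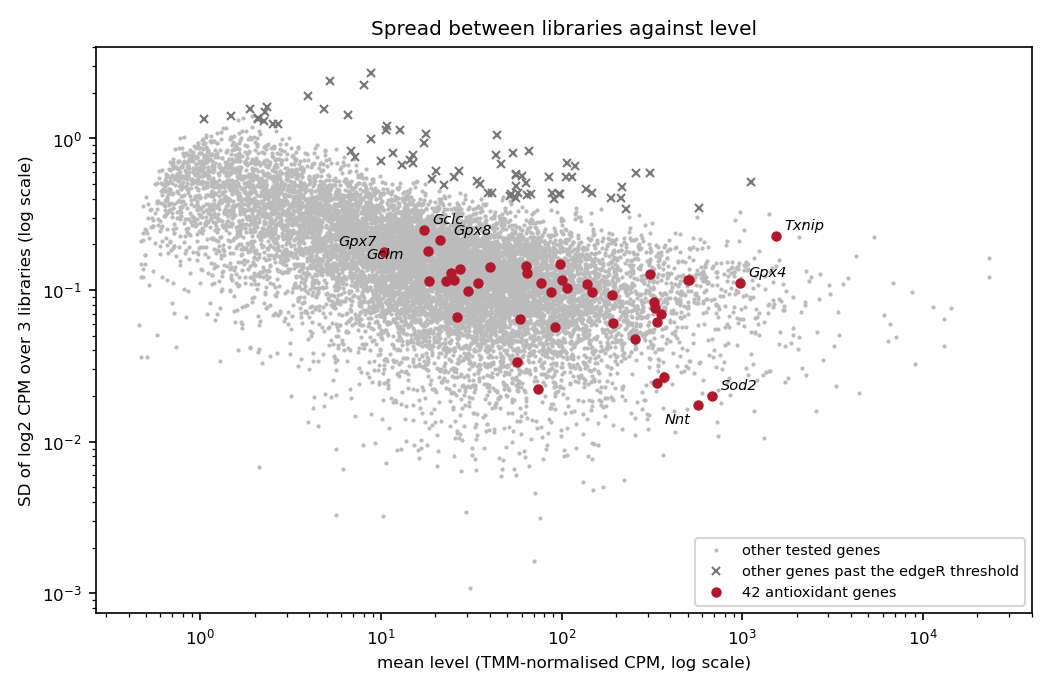
SD of log2 CPM over the 3 libraries (vertical axis, log scale) against mean TMM-normalised CPM (horizontal axis, log scale). Red points are the 42 genes, grey points the other genes tested and crosses those past the edgeR threshold. The red points lie within the grey cloud, with Txnip at 0.226 nearest its upper edge and Nnt at 0.0174 and Sod2 at 0.020 low in it.

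The libraries did not share the lowest and highest values evenly. Library 3 was lowest for 24 of the 42 genes (57.1%), where it was lowest for 35.2% of all genes tested. Library 1 was lowest for 8 (19.0%, against 31.5% of all) and library 2 for 10 (23.8%, against 33.3% of all). Library 2 was highest for 20 (47.6%, against 33.6% of all), library 1 for 17 (40.5%, against 32.0% of all) and library 3 for 5 (11.9%, against 34.3% of all). The median deviation from the 3-library mean was 0.015, 0.039 and -0.068 on the log2 scale in libraries 1, 2 and 3. Over all genes tested it was 0.002, 0.001 and 0.001. Short genes as a whole were lower in library 3. With under 2000 bases of exon, 9 of 14 members (64.3%) and 55.3% of all genes were lowest in library 3, and median deviations were 0.010, 0.097 and -0.090 for the members and 0.012, 0.072 and -0.078 for all genes. With 2000 to under 5000 bases, 12 of 20 members (60.0%) and 41.4% of all genes were lowest there, and with 5000 bases or more, 3 of 7 members (42.9%) and 23.8% of all. In library 3 the median deviation with 2000 to under 5000 bases was -0.071 for the members and -0.025 for all genes. With 5000 bases or more it was -0.008 for the members and 0.048 for all genes. The length classes were chosen after values were seen, and the part of length in these shifts was not tested.

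**Figure D4:**
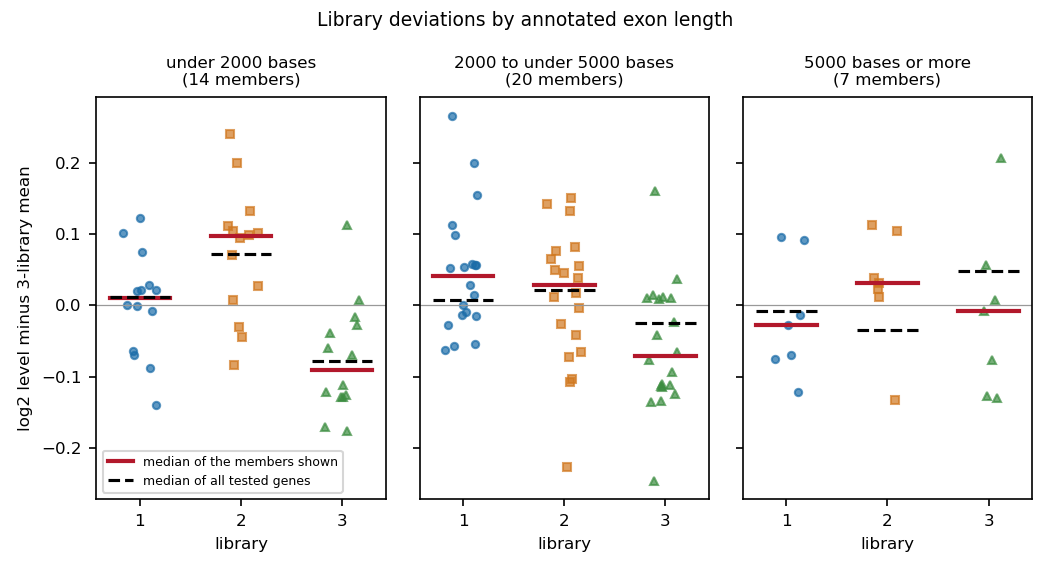
Deviation of each member's log2 level from its 3-library mean (vertical axis) in libraries 1, 2 and 3, in 3 classes of annotated exon length. Red bars are medians of the members shown and dashed bars medians of all tested genes of that class. Under 2000 bases, members and all genes lie low in library 3, at medians of -0.090 and -0.078.

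Around these 42 genes, 7 further lists of the same pathways held 124 genes, of which 120 were in the table, 105 were detected and 109 were tested. By edgeR, 3 of the 109 (2.75%) varied between libraries after adjustment over all genes, beside the 0.591% of all genes, and these 3 were known from earlier work on these data when the lists were made. Among NADPH producers, all 13 were detected, led by mitochondrial Idh2, a dehydrogenase of isocitrate (2570 ± 22.3 CPM), with the malic enzymes Me3 (132 ± 1.45 CPM) and Me1 (123 ± 7.52 CPM) next. Aldh1l1, a folate enzyme that yields NADPH, was the only one to vary, with 356, 374 and 91 counts (edgeR adjusted p = 1.26e-06), and the call was lost without library 3 (adjusted p = 1.0). Among selenoproteins and the genes that insert selenocysteine, 18 of 19 were detected, all except the receptor Lrp8 (named after its values were seen), and 0 varied (0 also by DESeq2, and 0 at an unadjusted p under 0.05 by edgeR). Selenop, the plasma selenium carrier (540 ± 7.90 CPM), Selenow (194 ± 5.69 CPM) and Selenof (163 ± 8.63 CPM) led them.

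The list of NRF2 partners and further targets was detected in full (19 of 19) and led by the ferritin heavy chain Fth1 (3010 ± 195 CPM), the NRF2 relative Nfe2l1 (745 ± 39.8 CPM) and the autophagy adaptor Sqstm1 (640 ± 47.2 CPM). Its member Mt2, a metallothionein, had 2947, 2273 and 1705 counts (edgeR adjusted p = 0.0187), a call that was lost without library 1 (0.977) and without library 3 (0.734). Of 20 other glutathione transferases 14 were detected, led by Gsto1 (151 ± 8.44 CPM), Gstm2 (114 ± 2.01 CPM) and Gstm5 (68.3 ± 10.9 CPM). Gstp2 varied (edgeR adjusted p = 0.00535), but not without library 1 (0.153), without library 3 (1.0) or without the low-count filter (0.0521). Of 19 genes of glutathione turnover and transport 14 were detected, led by the mitochondrial carrier Slc25a39 (154 ± 5.65 CPM), Esd (94.9 ± 4.04 CPM) and Glo1 (86.2 ± 3.20 CPM). In that list 0 varied by edgeR or by DESeq2, and 1 had an unadjusted p under 0.05 by edgeR. All 15 other thiol peroxidase, thioredoxin and methionine sulfoxide reductase genes in the table were detected, with Sesn1 (249 ± 14.7 CPM), Park7 (191 ± 12.1 CPM) and Msrb3 (137 ± 2.17 CPM) highest, and 0 varied by edgeR or by DESeq2, with 2 at an unadjusted p under 0.05 by edgeR.

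**Figure D5:**
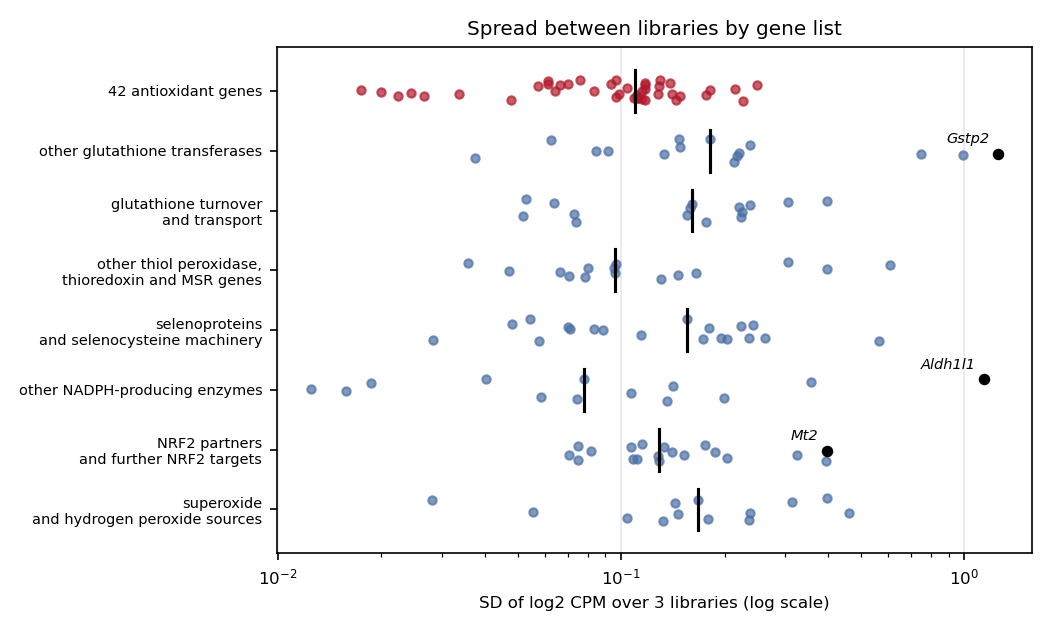
SD of log2 CPM over the 3 libraries (horizontal axis, log scale) for the 42 genes and for the tested genes of 7 further lists. Points are genes, vertical bars are medians, and black named points are genes past the edgeR threshold. The 42 genes have a median of 0.110 and hold no such gene, while Gstp2, Aldh1l1 and Mt2 stand out in 3 other lists.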

How the data were processed

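Poly(A) RNA of 3 heart libraries was analysed as a single group. Whole-number counts per gene symbol were deposited by the authors without normalization. HISAT2 2.0.4, Bowtie2 2.2.5, RSEM and the build GRCm39 are named per the submitters' processing notes, with no role or order stated there. RSEM estimates counts, so the deposited counts may be rounded estimates that divide reads between similar genes.

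CPM are counts per 1000000 of the library total. TPM used union exon lengths of GENCODE M21 (an earlier build, GRCm38), matched by symbol for 16077 of 16587 genes (96.9%), and no coordinates were joined to the counts. Between-library variation was tested for all genes past the default low-count filter with edgeR 4.0.16 in R 4.3.3. A negative binomial intercept fit with TMM factors and trended dispersion was used, its deviance was set against the chi-square distribution, and p-values were adjusted by Benjamini-Hochberg over all genes tested with a threshold of 0.05. An alternative used the dispersion trend of DESeq2 1.42.0 with a Pearson statistic. The test was tried on simulated data. Related genes were compared as log2 ratios of counts per kilobase within a library, after 0.5 was added to each count, with no test, since with 3 libraries the smallest p of an exact sign-flip test is 0.25. Other alternatives were scaling, filters, detection limits, lengths and leaving out each library. TPM from the longest transcript was an alternative chosen after seeing the data.

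The members, the 7 further lists of the pathway, the 10 marker lists and the 17 pairs were chosen with earlier results of these data known. All 42 members are named. From each further list the text names up to 3 genes of highest mean CPM and every gene past the edgeR threshold; a gene named outside this rule is said to be chosen after its values were seen. A gene that the rule would name is not reported here. Total counts were 25311388, 26398140 and 24914479, and each member had over 200 counts in every library. Counting error weighs more on members with the fewest counts, such as Gpx7 (237, 314 and 251 counts). Its part in the spreads was not measured. Nothing in the labels says that the libraries came from separate animals, so the p-values speak of the spread between 3 libraries, part or all of which may be technical.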

Additional observations from a re-analysis of the deposited data

How the results depend on the processing

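The count of 0 varying antioxidant genes held under every alternative run, and all 42 were detected at 5 CPM in every library. Detection at 0.5 CPM and without each library follows from detection at 1 CPM in every library, so those settings could not have failed. The count of varying genes in the whole table was 74, 126 without the low-count filter, and 17 to 51 when a library was left out. The 42 genes took 1.12% of the total counts without the 20 leading genes. With length correction, the 41 genes other than Nnt took 1.13% of the TPM of all genes with a length, which is a different set from the share of counts. Ratios of related genes depended on length. With no length correction Sod2/Sod1 (1.15) and Gclc/Gclm (-0.09) reversed, and with the longest transcript Sod2/Sod1 (0.59) did. Other means with the longest transcript were Gpx1/Gpx4 -2.91, Gpx3/Gpx1 0.84, Prdx2/Prdx1 0.55, Prdx3/Prdx2 0.20, Prdx3/Prdx5 -0.20, Txn2/Txn1 1.38, Txnrd2/Txnrd1 -0.43, Glrx5/Glrx2 2.11, Gstm1/Gstp1 1.15, Mgst3/Mgst1 3.08, Hmox2/Hmox1 1.39, Msra/Msrb1 -2.45 and Keap1/Nfe2l2 -0.76. With no length correction they were Gpx1/Gpx4 -2.80, Gpx3/Gpx1 1.41, Gpx8/Gpx7 1.03, Prdx3/Prdx2 0.07, Prdx3/Prdx5 -0.50, Txn2/Txn1 2.35, Txnrd2/Txnrd1 -0.76, Glrx5/Glrx2 1.70, Mgst3/Mgst1 2.99, Hmox2/Hmox1 1.53, Msra/Msrb1 -1.37 and Keap1/Nfe2l2 -0.22. These shifts come from the lengths themselves. The remaining ratios under these 2 settings, and all 17 with 5 added to each count, stayed within their SD. All 17 also did when a library was left out. Leaving out 1 library cannot move a mean by a full SD, so that setting could not have failed. Of 84 spreads recomputed under other scalings, 83 stayed within 1.5 times, and Gstm1 fell to 0.0107 with library totals only. No paired analysis was possible because all libraries form 1 group.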

Other observations

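Enzymes that make superoxide or hydrogen peroxide were also present in these hearts. Of 16 listed, 15 were in the table and 12 were detected. Xanthine dehydrogenase, Xdh, stood at 202 ± 22.5 CPM and the monoamine oxidase Maob at 68.5 ± 5.08 CPM (SD, n = 3). The NADPH oxidases Nox4 (14, 23 and 13 counts), Duox1 (16, 37 and 3 counts) and Duox2 (18, 7 and 16 counts) were below 1 CPM in at least 1 library and are named after their values were seen. By edgeR 0 of the 13 genes tested varied between libraries after adjustment over all genes, 0 did at an unadjusted p under 0.05, and 0 did by DESeq2.

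Markers of other cell types and tissues were summed in each library. The 12 liver markers summed to 169, 15.6 and 16.8 CPM in libraries 1, 2 and 3, with 2 of 12 detected and 3 at 0 in at least 1 library. The 6 mast cell markers in the table summed to 7.15, 8.18 and 22.7 CPM, with 3 detected. The 8 mesothelial markers summed to 20.74, 15.04 and 27.73 CPM, with 1 detected and 6 at 0 in at least 1 library. The leading gene of the list by mean was Wt1 (506, 395 and 252 counts), and the other 7 summed to 0.751, 0.0758 and 17.6 CPM, with 5 of them at 0 in both library 1 and library 2. Of the 7, Upk3b had 2, 0 and 212 counts and Msln 0, 0 and 107 counts, so their signal was almost wholly in library 3. These 3 genes are named after their values were seen. The 7 adipocyte markers summed to 1.34, 1.10 and 3.05 CPM, with 0 detected at 1 CPM in every library and Ucp1 at 0 in all 3. The 8 endothelial (1511, 1441 and 1704 CPM), 8 fibroblast (3390, 3511 and 3569 CPM) and 8 macrophage markers (1103, 1039 and 1029 CPM) were all detected. Their part in the levels of the antioxidant genes was not tested.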
